A study of Mus musculus with 31 samples.

Results

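The genes described here encode 7 subunits of the GABA-A receptor: the alpha subunits Gabra2, Gabra3, Gabra4, Gabra5 and Gabra6 and the beta subunits Gabrb1 and Gabrb2. They were taken by symbol from a list, and all 7 were found among the 48795 genes of the count table, which holds 19 GABA-A and rho subunit genes. The libraries were made from total RNA of homogenised half-brain tissue of mice. The agent label assigned 13 libraries to control and 18 to deltamethrin, a pyrethroid insecticide, and the study asked what exposure during development does to transcription in the brain. The labels give no dose, vehicle, strain, sex or age, and they do not say that each library came from its own animal. The p-values therefore measure the spread between these libraries, which may be technical in part.

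GABA-A receptors are chloride channels opened by GABA, the main inhibitory transmitter of the adult brain. Each is a pentamer, most often built of alpha, beta and gamma or delta subunits, and the alpha subunit sets much of the receptor's affinity for GABA, its place at or outside the synapse and its response to benzodiazepines. The subunits are unevenly spread over the brain: Gabra6 is known for cerebellar granule cells, Gabra5 for hippocampal pyramidal cells, Gabra4 for thalamus, striatum and dentate gyrus, Gabra3 for deep cortical layers and monoaminergic nuclei, and Gabra2 for forebrain. The level of each gene in a homogenate of a large piece of brain can thus move with the regions and cells it holds as well as with transcription within a cell. In such bulk samples fewer cells of a type and less RNA per cell cannot be told apart.

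Depth ran from 17570311 to 38680621 counts per library, and a listed subunit had between 192 counts (Gabra6) and 6977 counts (Gabrb2) in a single library. Mitochondrial ribosomal RNA took from 7.32% to 40.2% of the counts, the highest share being in control replicate 2, so levels are given as CPM, counts brought to a common library size with TMM factors, which are estimated from the bulk of genes. Summed CPM of 8 neuronal markers ran from 2006 to 4133, and no marker of the 16 region and cell type lists was at 0 in every library. Control replicate 1 and deltamethrin replicate 14 stood apart by their low levels of cerebellar granule cell markers. Their granule cell scores, the mean log2 CPM over 9 markers, were 2.71 and 3.40. The mean score was 4.57 ± 0.700 (SD, n = 13) over the control libraries and 4.83 ± 0.534 (SD, n = 18) over those of deltamethrin.

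The 7 genes lie on 4 chromosomes of the mouse genome (GRCm38, GENCODE M21), most of them in clusters of subunit genes. Gabra2 (ENSMUSG00000000560, chr5:70957597-71095849, minus strand), Gabra4 (ENSMUSG00000029211, chr5:71569749-71658308, minus strand) and Gabrb1 (ENSMUSG00000029212, chr5:71658113-72149037, plus strand) share a cluster with Gabrg1. Gabra6 (ENSMUSG00000020428, chr11:42306437-42321072, minus strand) and Gabrb2 (ENSMUSG00000007653, chr11:42419757-42629028, plus strand) lie 98.7 kb apart. Gabra5 (ENSMUSG00000055078, chr7:57407672-57510059, minus strand) sits beside Gabrg3, and Gabra3 (ENSMUSG00000031343, chrX:72432681-72656848, minus strand) is on the X chromosome. All 7 are protein coding.

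Overlaps between these genes limit a few counts. The annotated loci of Gabra4 and Gabrb1 overlap head to head by 196 bp, of which 46 bp are exonic in both, 0.756% of the exonic length of Gabra4. Gabra5 overlaps the antisense gene Gm9962 over 148 exonic bases, 4.98% of its exonic length, and Gm9962 had 1329 counts over all 31 libraries against 43735 for Gabra5. Whether the authors' counting used strand is not given in the sources used here, so reads in shared exons cannot be assigned with certainty.

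The start regions of 4 members are shown: Gabra6 and Gabra5, which had opposite relations with cerebellar markers, and Gabra4 and Gabrb1, which start next to each other. A link between these sequences and the results below was not tested. The windows are those of RefSeq (GRCm38.p6), from 250 bases before the start to 50 after it, 5′ to 3′ on the gene's strand. A window was found for all 7 members, 11 windows in all since some genes have several starts. Capitals mark matches to 2 of the 5 motifs searched, a GC box (GGGCGG or its complement) and an NFI half-site (TTGGCA or its complement).
Gabra6, chr11:42321023-42321322, minus strand: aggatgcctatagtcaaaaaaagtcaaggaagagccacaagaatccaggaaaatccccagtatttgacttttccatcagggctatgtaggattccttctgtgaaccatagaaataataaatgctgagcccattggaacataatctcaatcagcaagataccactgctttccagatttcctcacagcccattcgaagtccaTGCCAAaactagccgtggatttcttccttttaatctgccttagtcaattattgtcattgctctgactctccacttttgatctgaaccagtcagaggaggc
Gabra5, chr7:57510010-57510309, minus strand: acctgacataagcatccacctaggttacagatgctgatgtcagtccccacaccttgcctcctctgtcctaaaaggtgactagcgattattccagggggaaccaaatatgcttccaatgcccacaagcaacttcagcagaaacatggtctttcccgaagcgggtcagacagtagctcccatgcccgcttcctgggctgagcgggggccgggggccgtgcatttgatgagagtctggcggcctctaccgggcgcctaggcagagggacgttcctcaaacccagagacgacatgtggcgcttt
Gabra4, chr5:71658259-71658558, minus strand: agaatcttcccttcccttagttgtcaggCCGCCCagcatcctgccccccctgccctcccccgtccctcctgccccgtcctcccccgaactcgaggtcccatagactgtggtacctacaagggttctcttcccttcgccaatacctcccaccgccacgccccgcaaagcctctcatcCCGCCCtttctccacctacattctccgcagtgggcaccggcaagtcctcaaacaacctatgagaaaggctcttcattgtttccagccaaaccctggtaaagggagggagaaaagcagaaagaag
Gabrb1, chr5:71657671-71657970, plus strand: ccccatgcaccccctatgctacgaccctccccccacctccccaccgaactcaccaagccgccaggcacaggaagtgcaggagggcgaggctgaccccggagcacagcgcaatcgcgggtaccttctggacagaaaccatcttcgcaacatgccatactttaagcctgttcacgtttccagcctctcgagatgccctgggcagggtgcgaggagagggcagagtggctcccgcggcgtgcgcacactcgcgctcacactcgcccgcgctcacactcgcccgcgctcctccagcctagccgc

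The 4 windows differ most in their CpG content. The Gabra6 window has 2 CpG dinucleotides and 42.0% G and C, the Gabra5 window 13, the Gabra4 window 12 and the printed Gabrb1 window 25, against a median of 7 over the 32851 windows of the RefSeq table. Another Gabrb1 window, at chr5:71699682-71699981 and not printed, has 9. The Gabra6 window holds 1 NFI half-site, a motif present in 14.1% of all windows on either strand. The Gabra4 window holds 2 GC boxes, a motif present in 35.7% of all windows. Neither of the Gabra5 and Gabrb1 windows holds any of the 5 motifs, which also included TATAAA on the gene's strand (8.32% of all windows), CACGTG (7.15%) and TGACG (20.8%), each of the last 2 on either strand. The Gabra6 match is a short string of letters and no binding was measured.

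Per kilobase of exon, 4 of the listed subunits had levels close to one another. Gabrb2 (17.8 CPM per kb), Gabra3 (17.5), Gabra4 (17.3) and Gabra6 (17.2) were the highest of the 7 by their means over the 31 libraries. The higher of each neighbouring pair was above the other in only 18, 14 and 15 of 31 libraries, so neighbours in this order did not differ beyond their spread. Pairs farther apart in the order were not compared. Gabra5 (15.3 CPM per kb) was below Gabra6 in 20 of 31 libraries. Gabra2 (10.1 CPM per kb) was above Gabrb1 in 31 of 31. Gabrb1 had the lowest level per kb of the 7 members, 6.06, over an annotated exonic length of 13838 bp, the longest of the 7.

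The comparison of deltamethrin with control asked whether any of the 7 transcripts differed between the groups. None passed after adjustment over all genes. Gabra5 alone had an unadjusted p under 0.05, and it was lower in deltamethrin. Of the 7, 5 had a positive and 2 a negative log2 fold change, with a median of 0.12 against 0.0014 over all 19529 genes tested, and the 7 folds lay between 0.912 and 1.12. By edgeR's quasi-likelihood test 0 of the 7 had an adjusted p under 0.05, as did 0.0% of all genes tested, and 1 of 7 had an unadjusted p under 0.05, against 4.37% of all genes (2.37% lower and 2.0% higher). The count of 0 over all genes stood beside 853 genes at an unadjusted p under 0.05, and DESeq2 and limma voom likewise gave 0, with 986 and 847 genes at an unadjusted p under 0.05.

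**Figure D1:**
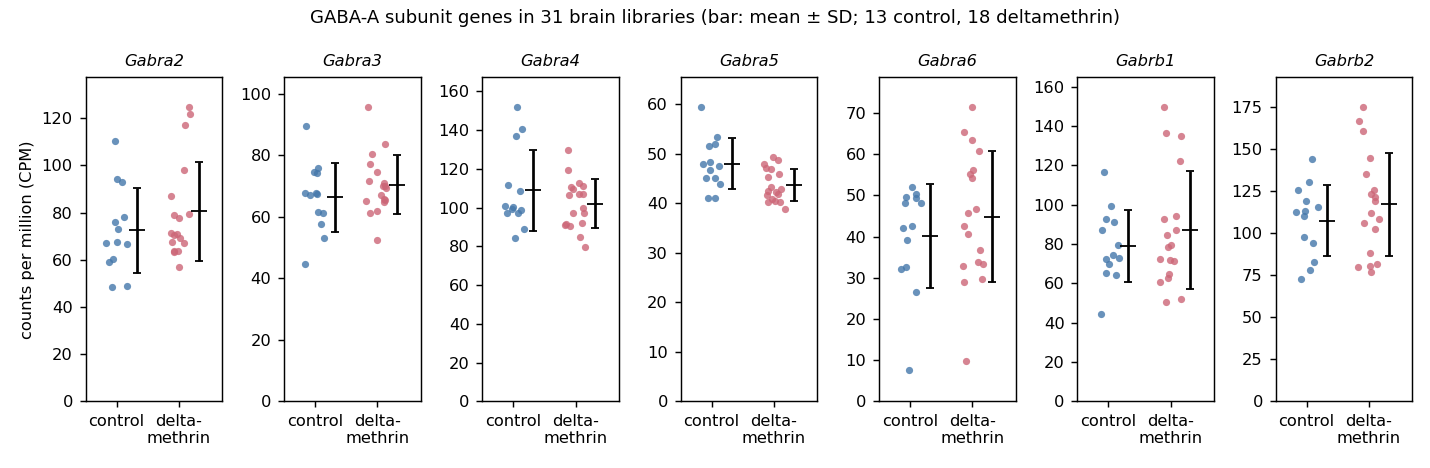
Each panel plots one subunit gene in CPM (linear axis from 0) for the 13 control and 18 deltamethrin libraries, 1 point per library, with a bar at the mean ± SD. The groups overlap in every panel, and the low points of Gabra6 are control replicate 1 (7.66 CPM) and deltamethrin replicate 14 (9.84 CPM).

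Gabra2 encodes an alpha subunit of synaptic receptors that takes part in the calming effect of benzodiazepines. It ran from 48.5 to 110.3 CPM in control with a median of 67.4, and from 57.1 to 125 CPM in deltamethrin with a median of 71.1. Both groups overlapped over most of their range, and the 3 highest libraries were deltamethrin replicates 3, 2 and 1 at 125, 122 and 117 CPM. The means were 72.5 ± 18.03 CPM (SD, n = 13) and 80.5 ± 21.1 CPM (SD, n = 18). The log2 fold change was 0.15 ± 0.12 (SE), with an edgeR adjusted p of 0.821, and 13 of 18 deltamethrin libraries lay above the control median.

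Gabra3 encodes the alpha subunit prominent in monoaminergic neurons. Control libraries ran from 44.7 to 89.6 CPM (median 67.3) and deltamethrin libraries from 52.6 to 95.8 CPM (median 69.7). The lowest value was that of control replicate 2, the library with the most mitochondrial rRNA. The log2 fold change was 0.08 ± 0.08 (SE; edgeR adjusted p = 0.826), and 10 of 18 deltamethrin libraries were above the control median. Without control replicate 2 it was 0.04.

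Gabra4, whose product mostly forms extrasynaptic receptors with the delta subunit, ran from 84.1 to 152 CPM in control (median 100.5) and from 79.6 to 129.5 CPM in deltamethrin (median 103). The mean was higher in control while the median was not. The 3 highest libraries were control replicates 1, 7 and 2 at 152, 140.3 and 137 CPM, and the groups otherwise overlapped. The means were 109 ± 20.96 CPM (SD, n = 13) and 102 ± 12.8 CPM (SD, n = 18), a log2 fold change of -0.09 ± 0.08 (SE; edgeR adjusted p = 0.823). Without control replicate 1 it was -0.05, and with the granule cell score in the model -0.01.

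Gabra5, the alpha subunit of extrasynaptic receptors in hippocampus that carry tonic inhibition, had the smallest p of the 7. It ran from 41.1 to 59.5 CPM in control (median 47.6) and from 38.8 to 49.4 CPM in deltamethrin (median 42.8), and 15 of 18 deltamethrin libraries were at or below the control median. The groups overlapped between 41.1 and 49.4 CPM, with control replicates 1, 3, 7 and 2 above every deltamethrin library. The means were 47.95 ± 5.15 CPM (SD, n = 13) and 43.7 ± 3.28 CPM (SD, n = 18), a log2 fold change of -0.13 ± 0.05 (SE; edgeR unadjusted p = 0.0137, adjusted p = 0.813 over all genes). It was also the steadiest of the 7, with a biological coefficient of variation of 10.3%, lower than in all but 5.72% of the genes tested. With the granule cell score in the model the log2 fold change was -0.09 (edgeR unadjusted p = 0.0349), and without scaling factors it was -0.08 (edgeR unadjusted p = 0.237).

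Gabra6, the alpha subunit of cerebellar granule cells, was the most variable. It ran from 7.66 to 51.9 CPM in control (median 42.7) and from 9.84 to 71.6 CPM in deltamethrin (median 44.2), a 9.35-fold range over the 31 libraries. The low end was held by control replicate 1 and deltamethrin replicate 14, the libraries with the lowest granule cell scores, and the next lowest was control replicate 7 at 26.5 CPM. The 4 highest libraries were deltamethrin replicates 13, 15, 16 and 17, from 60.8 to 71.6 CPM. The means were 40.1 ± 12.6 CPM (SD, n = 13) and 44.9 ± 15.8 CPM (SD, n = 18), and the log2 fold change was 0.16 ± 0.20 (SE; edgeR adjusted p = 0.859). With the granule cell score in the model its sign turned, to -0.07. Without control replicate 1 it was 0.07. Its biological coefficient of variation of 38.3% was above that of 92.8% of the genes tested.

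Both beta subunits shared their highest libraries. Gabrb1 ran from 44.7 to 116.4 CPM in control (median 74.3) and from 50.7 to 149.9 CPM in deltamethrin (median 79.2). Gabrb2, the beta subunit common in synaptic receptors of adult brain, ran from 72.8 to 144 CPM in control (median 112.7) and from 77.0 to 175 CPM in deltamethrin (median 115.4). Deltamethrin replicates 1, 3 and 2 were the highest for both. They were at 149.9, 136.5 and 135 CPM for Gabrb1 and at 175, 167 and 161 CPM for Gabrb2. Deltamethrin replicate 7, at 122.2 and 144.5 CPM, was also above every control library for both. The remaining libraries overlapped between the groups. The log2 fold change was 0.14 ± 0.15 (SE; edgeR adjusted p = 0.836) for Gabrb1 and 0.12 ± 0.12 (SE; edgeR adjusted p = 0.831) for Gabrb2. Without deltamethrin replicate 1 the Gabrb1 value was 0.08. The Gabrb2 value was 0.06 with the granule cell score in the model and 0.07 with the mitochondrial rRNA share.

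**Figure D2:**
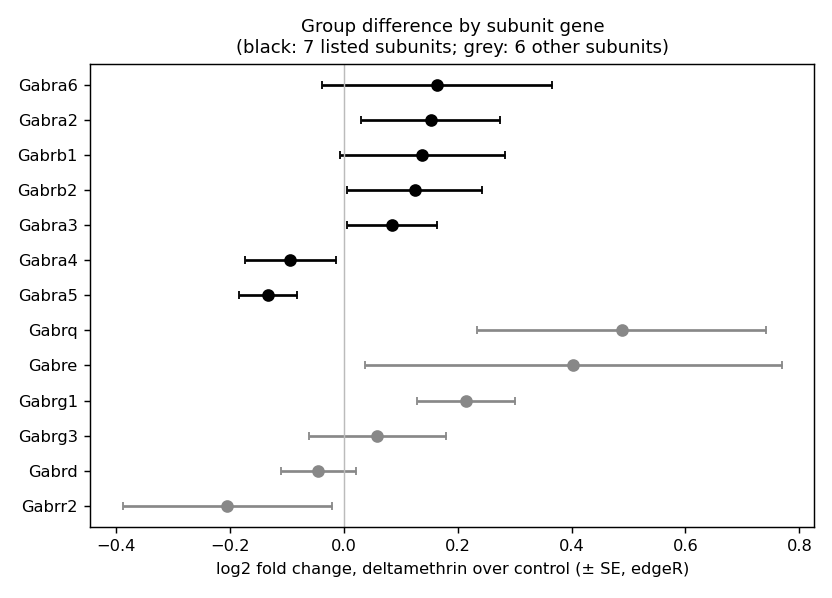
The plot gives the log2 fold change of deltamethrin over control for the subunit genes shown (x axis, 0 marks no difference) with bars of ± SE from edgeR, the 7 listed subunits in black and 6 other tested subunits in grey. Gabra5 (-0.13) and Gabrg1 (0.21) are the genes with an unadjusted p under 0.05, and neither passed after adjustment over all genes.

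The other genes of the pathway, taken from lists, also gave no gene past the adjusted threshold. Of 12 other subunit genes 9 passed the count filter, and Gabrp, Gabrr1 and Gabrr3 did not. Of the 9, 7 had a positive and 2 a negative log2 fold change, with a median of 0.11 against 0.0014 over all genes tested. An unadjusted p under 0.05 was found for 1 of the 9, against 4.37% of all genes tested. That was Gabrg1, a gamma subunit found in glia and in limbic forebrain, at 19.4 ± 3.26 CPM over the control libraries (SD, n = 13) and 22.5 ± 3.803 CPM over those of deltamethrin (SD, n = 18). This came to a log2 fold change of 0.21 ± 0.09 (SE; edgeR unadjusted p = 0.0177, adjusted p = 0.813), with 16 of 18 deltamethrin libraries above the control median. All 8 astrocyte markers also had a higher mean in deltamethrin, with a score difference of 0.12 (permutation p = 0.181). Deltamethrin replicates 2, 3 and 1 had the highest astrocyte scores of all libraries, 8.14, 8.04 and 7.91. The difference was not taken without them as a group. The part of the astrocyte markers in the Gabrg1 value was not tested. Gabrq had the next smallest p, with a log2 fold change of 0.49 ± 0.25 (SE; edgeR unadjusted p = 0.0634, adjusted p = 0.813). Its level was low, with as few as 6 counts in a library. The mean was 1.40 ± 0.83 CPM over the control libraries (SD, n = 13) and 2.02 ± 0.95 CPM over those of deltamethrin (SD, n = 18). Gabrg1 is the neighbour of Gabra2 in the chromosome 5 cluster, 115.0 kb away.

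All 18 genes of the inhibitory synapse were tested, 15 with a positive and 3 with a negative log2 fold change. Their median was 0.09, against 0.0014 over all genes tested, and the list was not tested as a set. After adjustment over all genes 0 of them passed. Gad2, which makes GABA from glutamate, was the 1 of 18 with an unadjusted p under 0.05, against 4.37% of all genes tested. The mean was 113 ± 19.2 CPM over the control libraries (SD, n = 13) and 132 ± 33.8 CPM over those of deltamethrin (SD, n = 18), a log2 fold change of 0.23 ± 0.11 (SE; edgeR unadjusted p = 0.0440, adjusted p = 0.813), but only 11 of 18 deltamethrin libraries were above the control median. Its p stayed under 0.05 in 20 of the 31 fits that left out 1 library, where it reached 0.0851, and did not in the fits with the granule cell score, without scaling or by limma voom. Gabarap, a receptor trafficking protein, and Slc12a2, the chloride importer NKCC1, had the next smallest p, with log2 fold changes of -0.17 ± 0.11 and 0.15 ± 0.11 (SE).

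Region markers did not separate the groups either. Of 17 measures compared (16 marker scores and the log2 mitochondrial rRNA share), 0 had an adjusted p under 0.05 by two-sided permutation test, and the smallest adjusted p was 0.62. The granule cell score was higher in deltamethrin by 0.26 (permutation p = 0.264), and 9 of its 9 markers had a higher mean there, with summed CPM of 105.6 to 544.9 in control and 147.7 to 688.8 in deltamethrin. Without control replicate 1 the difference was 0.10. The striatal score was lower by 0.14 (permutation p = 0.226), and 1 of its 10 markers had a higher mean in deltamethrin. Their part in the subunit differences was not tested beyond the fits with scores as covariates.

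Across libraries, the closest relations with region markers were those of Gabra6, Gabra5 and Gabra4 with the cerebellar scores, which held within each group. Of 70 correlations between the log2 CPM of the 7 genes and 9 region scores or the mitochondrial rRNA share, 27 had a Benjamini-Hochberg adjusted permutation p under 0.05, 11 positive and 16 negative. The smallest of these had an r of 0.42 in size, and 24.1% of the correlations of all tested genes with the same measures were at least as large, so a relation of that size was common. A correlation across bulk libraries is between levels that share depth, scaling and dissection, and the scores hold no GABA-A subunit. Each r below is Pearson's over 31 libraries, and 1e-05 is the smallest permutation p that could be reached.

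**Figure D3:**
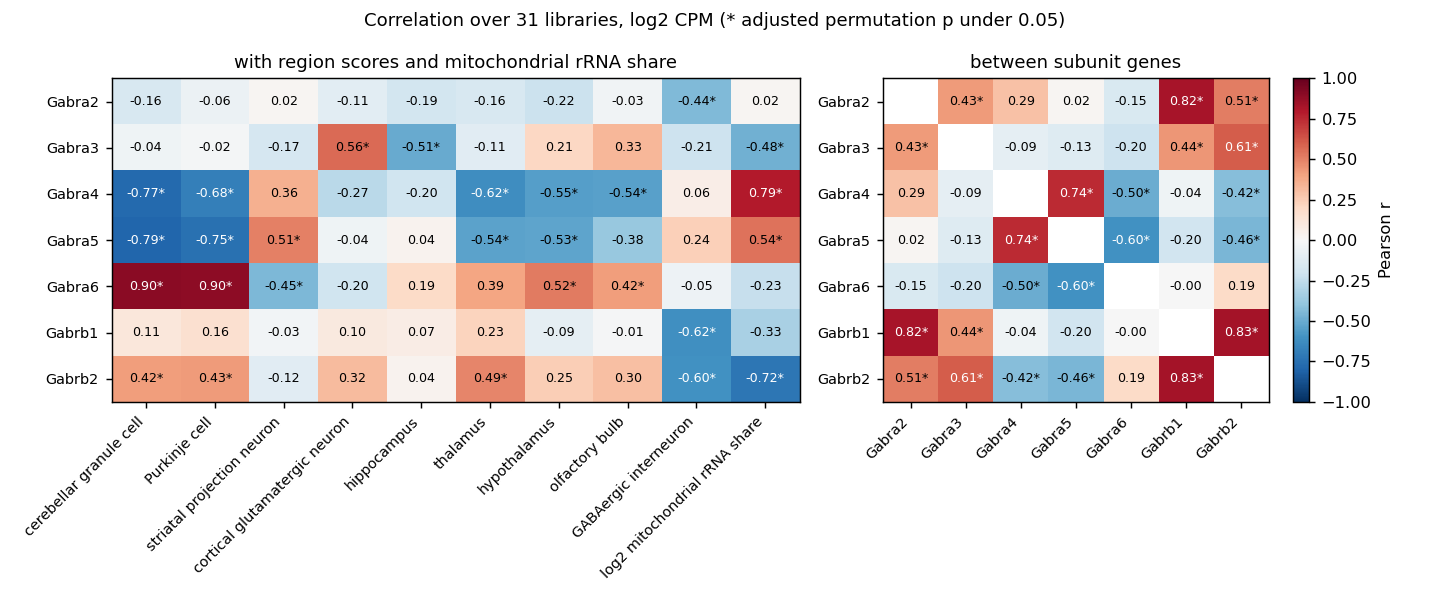
The left map gives Pearson's r between each subunit gene (rows) and each region score or the mitochondrial rRNA share (columns), and the right map r between subunit genes, over 31 libraries, with an asterisk where the adjusted permutation p is under 0.05. The row of Gabra6 is most positive (0.90) and those of Gabra4 and Gabra5 most negative (-0.77 and -0.79) for the cerebellar granule cell score.

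Gabra6 rose with the cerebellar scores. Its r was 0.90 with the granule cell score (permutation p = 1e-05, adjusted 0.000117; rho = 0.83, permutation p = 1e-05), 0.94 within control and 0.87 within deltamethrin. Leaving out control replicate 1 and deltamethrin replicate 14, the libraries farthest from the median score, left r at 0.78. With the Purkinje cell score r was 0.90 as well (rho = 0.77, each permutation p = 1e-05), so both cerebellar scores gave the same r to 2 decimals. All 9 granule cell markers had a positive r with Gabra6, led by the transcription factor Neurod1 (0.92) and the synapse organiser Cbln1 (0.92). Only 0.149% of the genes tested had an r with the granule cell score as high as that of Gabra6. The weaker relations with the hypothalamus score (0.52) and the olfactory bulb score (0.42) dropped to 0.25 and 0.22 without the 2 libraries farthest from the median of those scores. With 1 library left out they were lowest without control replicate 1, at 0.32 and 0.29. Leaving out extremes narrows the range of a score, so the drop does not show how far a relation rests on those libraries. With the striatal score r was -0.45 (adjusted permutation p = 0.0291).

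**Figure D4:**
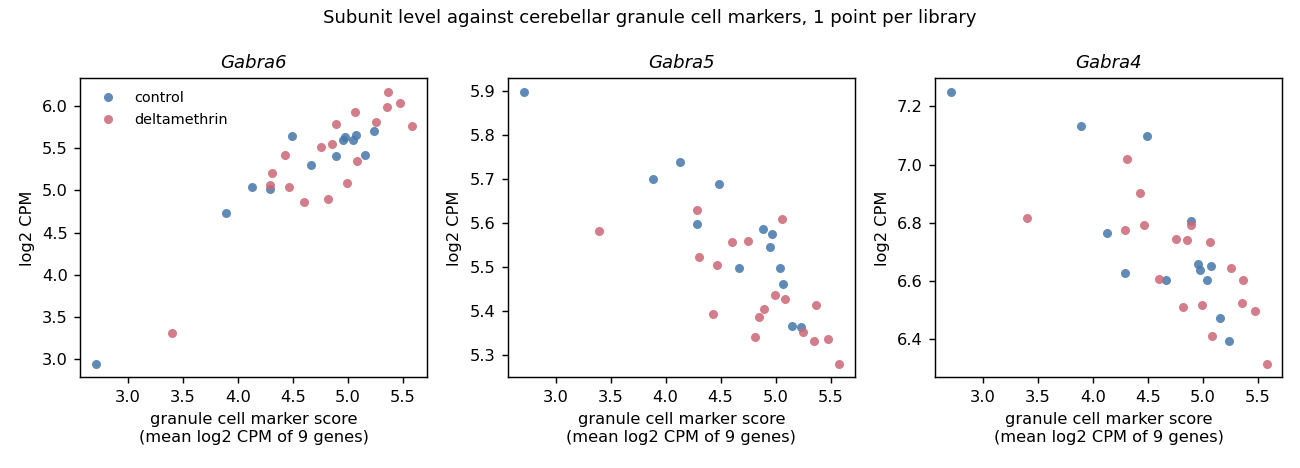
Each panel plots log2 CPM of one subunit gene against the granule cell score (mean log2 CPM of 9 markers) with 1 point per library, control and deltamethrin in different colours. Gabra6 rises along the score (r = 0.90), and Gabra5 (r = -0.79) and Gabra4 (r = -0.77) fall along it, in both groups.

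Gabra5 and Gabra4 went the other way. Gabra5 had an r of -0.79 with the granule cell score (permutation p = 1e-05, adjusted 0.000117; rho = -0.74, permutation p = 1e-05), -0.90 within control, -0.67 within deltamethrin and -0.75 without the 2 farthest libraries. All 9 granule cell markers had a negative r with Gabra5, led by the cerebellar transcription factors Zic1 (-0.82) and Zic2 (-0.79). Only 0.00512% of the 19529 genes tested had an r as low, a share that stands for Gabra5 itself. The same share holds for its r of -0.75 with the Purkinje cell score. With the striatal score r was positive at 0.51 (adjusted permutation p = 0.0125) and 0.61 without the 2 farthest libraries. It was 0.68 within control but 0.26 within deltamethrin, and rho was 0.44 (adjusted permutation p = 0.056). For Gabra5 the other relations were weaker on such checks. The r of Gabra5 with the thalamus and hypothalamus scores, -0.54 and -0.53, dropped to -0.41 and -0.28 without the 2 farthest libraries. Within deltamethrin they were -0.25 and -0.12. With the hippocampus score, a region Gabra5 is known for, r was 0.04 (adjusted permutation p = 0.924).

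Gabra4 had an r of -0.77 with the granule cell score (permutation p = 1e-05, adjusted 0.000117; rho = -0.76, permutation p = 2e-05), -0.82 within control, -0.70 within deltamethrin and -0.75 without the 2 farthest libraries. The leading markers were Zic2 (-0.80) and the granule cell gene Cbln3 (-0.78). It was also tied to the mitochondrial rRNA share, with an r of 0.79 (adjusted permutation p = 0.000117), as high or higher in 6.07% of the genes tested. With the thalamus score, a region Gabra4 is known for, r was -0.62 (adjusted permutation p = 0.00216), and -0.41 without the 2 farthest libraries. Its r with the hypothalamus and olfactory bulb scores, -0.55 and -0.54, came to -0.29 and -0.32 without the 2 farthest libraries, and the hypothalamus value was -0.13 within deltamethrin. Without scaling factors the thalamus, hypothalamus and olfactory bulb values were -0.22, -0.15 and -0.21. Given the mitochondrial rRNA share, the partial r was -0.345, -0.31 and -0.19 in the same order. For rho the adjusted permutation p was 0.0573, 0.154 and 0.0778.

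Scaling moved the 2 negative relations more than the positive one. On CPM with no scaling factors, which share a denominator with the mitochondrial rRNA, r with the granule cell score was -0.14 for Gabra5 and -0.51 for Gabra4, against 0.91 for Gabra6. With library totals that leave the mitochondrial rRNA out it was -0.69, -0.71 and 0.91. Given the mitochondrial rRNA share, the partial r was -0.70, -0.67 and 0.95. The r of Gabra4 with the mitochondrial rRNA share was 0.26 without scaling factors, and that of Gabra5, 0.54 as scaled (as high or higher in 20% of the genes tested), turned to -0.31.

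Gabra3 had its largest r with the cortical glutamatergic score, 0.57 (permutation p = 0.00113, adjusted 0.00659; rho = 0.46, permutation p = 0.0107), 0.79 within control and 0.42 within deltamethrin, and 0.34 without the 2 farthest libraries, control replicate 2 and deltamethrin replicate 10. The leading markers were Mef2c (0.80) and Tbr1 (0.68), transcription factors of cortical projection neurons, but only 5 of the 8 markers had a positive r. With the hippocampus score r was -0.51 (adjusted permutation p = 0.0125), a sign that turned to 0.13 without scaling factors. With the mitochondrial rRNA share it was -0.48, as low or lower in 24.1% of the genes tested, and -0.26 without the 2 farthest libraries.

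For Gabra2, Gabrb1 and Gabrb2 the score with the largest r was that of GABAergic interneurons, and it was negative. The r was -0.44 for Gabra2 (adjusted permutation p = 0.0370), -0.62 for Gabrb1 (adjusted permutation p = 0.00171) and -0.60 for Gabrb2 (adjusted permutation p = 0.00216). Without deltamethrin replicates 2 and 3, the farthest from the median score, these were -0.20, -0.48 and -0.48, so the relation of Gabra2 weakened the most. Within control they were 0.002, -0.35 and -0.35, and within deltamethrin -0.67, -0.73 and -0.71, a difference between groups that was not tested. Of all genes tested, 12.5%, 2.25% and 2.86% had an r with that score as low as Gabra2, Gabrb1 and Gabrb2. Without scaling factors the r of these 3 was -0.24, -0.11 and 0.28. Most interneuron markers had a negative r with these genes, and 2, 1 and 2 of the 8 had a positive one: Sst, the somatostatin gene, had an r of -0.66 with Gabra2 and -0.77 with Gabrb1, Cck, the cholecystokinin gene, -0.81 with Gabrb2, and Reln, the reelin gene, a positive r with each of the 3 (0.54, 0.80 and 0.84 in the same order). Gabrb2 had its largest r with the mitochondrial rRNA share, -0.72 (adjusted permutation p = 0.000300), as low or lower in 10.7% of the genes tested. It had positive r with the thalamus (0.49), Purkinje cell (0.43) and granule cell (0.42) scores, values reached by 12.3%, 12.5% and 15.8% of the genes tested. Within control the last 2 were 0.07 and 0.18, and within deltamethrin 0.61 and 0.59. Given the mitochondrial rRNA share, the thalamus, Purkinje cell and granule cell values were 0.14, 0.14 and 0.04.

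Between the subunits themselves 11 of 21 pairs had an adjusted permutation p under 0.05, 7 positive and 4 negative. The smallest of these had an r of 0.42 in size, and 30.7% of all pairs of tested genes had one at least as large. Gabrb1 and Gabrb2 had an r of 0.84 (permutation p = 1e-05, adjusted 7e-05; rho = 0.78), 0.57 within control and 0.94 within deltamethrin. Gabra2 and Gabrb1 had 0.82 (adjusted permutation p = 7e-05; rho = 0.72) and Gabra4 and Gabra5 0.75 (adjusted permutation p = 7e-05; rho = 0.68). Gabra5 and Gabra6 had -0.60 (adjusted permutation p = 0.00218), -0.40 without the 2 farthest libraries and -0.20 without scaling factors. Gabra4 and Gabra6 had -0.50, and -0.22 without the 2 farthest libraries, control replicates 1 and 7. Without control replicate 1 alone that r was -0.29.

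Pairs that moved together lay on different chromosomes as well as on the same one. Of the 4 pairs on the same chromosome 1 passed, Gabra2 with Gabrb1, with a positive r. Of the 17 pairs on different chromosomes 10 did, 6 with a positive and 4 with a negative r. The 2 genes whose start windows are printed as neighbours on chromosome 5, Gabra4 and Gabrb1, had an r of -0.04 (adjusted permutation p = 0.896), 0.51 within control and -0.43 within deltamethrin. The chromosome 11 neighbours Gabra6 and Gabrb2 had an r of 0.19 (adjusted permutation p = 0.422). The difference between same-chromosome and other pairs was not tested.

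The transcripts most like each member, by r of log2 CPM among the 19529 genes tested, are given as a description with no p. For Gabra6 they were Crtam (0.95), Bcl2l15 (0.95), Ppp1r17 (0.94) and Mybpc3 (0.94), of which Ppp1r17 is also one of the 6 Purkinje cell markers used. For Gabra5 they were Utp18 (0.79), Klhl2 (0.76), Spg21 (0.76) and Kcnmb4os2 (0.75), and 0 genes had an r above 0.8. Gabra4 was nearest to Cdkl2 (0.92), Gpr34, Herc4 and Rpgr, and the nearest of Gabra3 included Rap2a (0.88), Mtpn and Zfr. The counts of genes with an r above 0.8 were 53 for Gabra6, 201 for Gabra4 and 52 for Gabra3.

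The beta subunits had many more close transcripts than the alpha subunits. Gabra2 was nearest to Pak3 (0.92), Ncam2, Nebl and Trim33, with 216 genes above 0.8. Gabrb1 was nearest to Taok1 (0.98), B230334C09Rik, Nf1 and the potassium channel gene Kcnq3, with 774 genes above 0.8. Gabrb2 was nearest to the potassium channel gene Kcna2 (0.98), Dnajb14, Cdc42bpa and Prr14l, with 1158 genes above 0.8.

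The shares of the 5 listed alpha genes in their own sum do not depend on the scaling of libraries. Each gene's share of the summed reads per kilobase was taken over Gabra2 to Gabra6. Gabra2 held 9.02% to 20.2% of the sum, Gabra3 13.3% to 27.6%, Gabra4 17.6% to 30.03%, Gabra5 14.7% to 25.2% and Gabra6 3.70% to 33.2%. The Gabra6 share thus spanned the widest range of the 5, with control replicate 1 at its low end and deltamethrin replicate 13 at its high end.

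The Gabra5 share averaged 21.1 ± 1.95% over the control libraries (SD, n = 13) and 19.0 ± 2.62% over those of deltamethrin (SD, n = 18). It differed by -2.06 percentage points, with 15 of 18 deltamethrin libraries below the control median. Its two-sided permutation p was 0.0238, and 0.119 after adjustment over the 5 genes, so it did not pass. It passed when deltamethrin replicate 14, the library with the largest Gabra5 share, was left out (-2.42 percentage points). The other 4 shares differed by -1.65 (Gabra4) to 1.62 (Gabra6) percentage points, with adjusted permutation p of 0.425 or more. Without control replicate 1 the Gabra4 and Gabra6 differences were -1.09 and 0.16, and without control replicate 2 the Gabra3 difference, 0.91 in all libraries, was 0.17. Over raw reads, not divided by length, the Gabra2, Gabra3 and Gabra6 differences were 2.02, 0.71 and 0.92. Those of Gabra4 and Gabra5 were -2.24 and -1.41, so that Gabra4 and not Gabra5 then had the largest drop. A lower share of one gene is in part the higher share of another, and Gabra2, Gabra3 and Gabra6 had higher mean shares in deltamethrin.

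**Figure D5:**
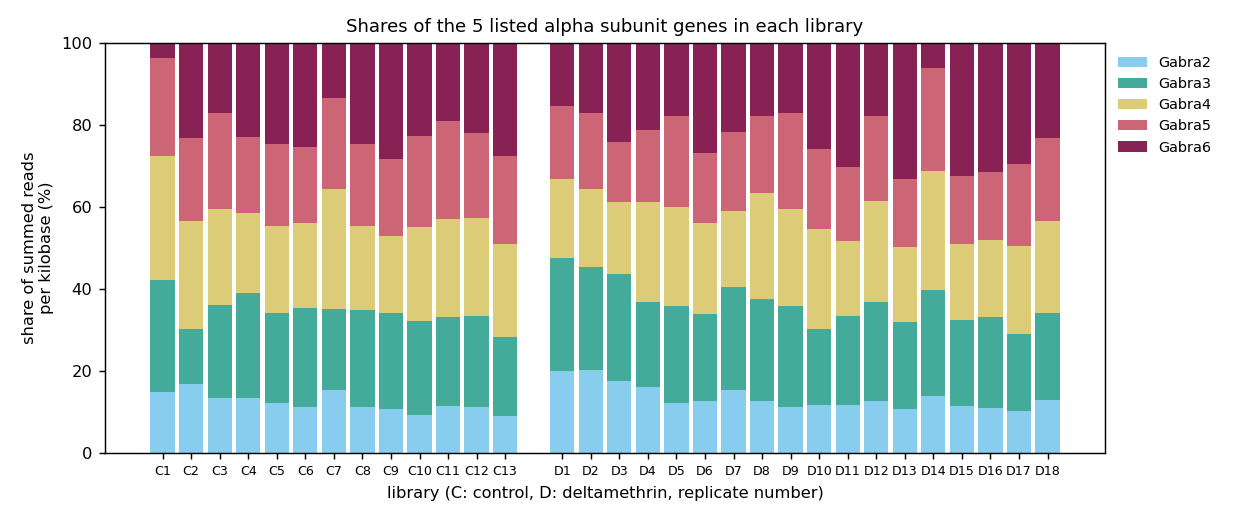
Stacked bars give the share of each of the 5 listed alpha subunit genes in their summed reads per kilobase (percent, y axis from 0 to 100) for each library, control on the left and deltamethrin on the right. The Gabra6 share is smallest in control replicate 1 (3.70%), and the Gabra5 share is largest in deltamethrin replicate 14 (25.2%).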

How the data were processed

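Total RNA libraries of mouse brain, 13 control and 18 deltamethrin by the agent label, were analysed from the authors' deposited table of raw counts per gene. Per the submitters' processing notes the tools were Trimmomatic, HISAT2, SAMtools and MultiQC with genome build GRCm38; the counting tool, its annotation and its use of strand are not given in the sources used here. Of 48795 gene IDs, 48435 (99.3%) were found in GENCODE M21, which gave exon lengths and positions.

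Genes were kept by filterByExpr (minimum count 10, minimum total 15), which left 19529. Groups were compared with edgeR 4.0.16 (R 4.3.3): TMM factors, quasi-likelihood F-test with robust=TRUE, no covariate, Benjamini-Hochberg adjustment over all genes kept. SEs were derived from the fold change and its F statistic (absolute value over the root of F). CPM uses TMM-scaled totals, and log2 CPM a prior count of 2. A region score is the mean log2 CPM of its markers. Scores, shares and correlations used permutation tests with 100000 resamples (10000 when 1 library was left out). DESeq2 1.42.0 and limma 3.58.1 voom were alternatives, beside other scaling factors, filters and covariates. The fits and correlations were tested on simulated data. No 2 libraries agreed within sampling noise (465 pairs, smallest chi-square per degree of freedom 6.20).

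The members and lists were chosen with earlier results of these data known. Genes named are the 7 members; in each pathway list those with an unadjusted p under 0.05 or, if fewer than 3, the 3 with the smallest p; for each member the 4 genes with the highest r, and 2 markers of its leading score. Gabrg3 and overlapping genes were named for their position. Some genes this rule picks are not reported here. Shares of alpha genes were taken over the 5 listed ones, a choice made after results were seen.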

Additional observations from a re-analysis of the deposited data

How the results depend on the processing

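No gene had an adjusted p under 0.05 under any of the 11 alternative fits or in the 31 fits that left out 1 library. The genes at an unadjusted p under 0.05 numbered 853 (391 higher, 462 lower), with 541 higher and 172 lower without scaling factors and 514 and 329 with upper quartile factors; the total was 2233 with the cerebellar, striatal and cortical scores as covariates, 1796 with the mitochondrial rRNA share, 1948 with no count filter and 526 to 1389 with 1 library left out. Of the 7 subunits 1 had an unadjusted p under 0.05, 0 without scaling factors and 2 with the 3 score covariates (Gabra3, at 0.15, and Gabra5), and 1 in each leave-one-out fit. Gabra6 reversed to -0.0662 with the granule cell score and -0.16 with the 3 scores; the cause was not tested. The other 6 kept their sign under the 11 alternatives and all 7 did with 1 library left out. Deltamethrin replicates 1, 2 and 3, the highest for Gabra2, Gabrb1 and Gabrb2, were never left out together. How far the differences of those genes rest on these libraries as a group was not tested. The alternatives gave 0.14 to 0.23 for Gabra2, 0.07 to 0.15 for Gabra3, -0.09 to -0.01 for Gabra4, -0.13 to -0.08 for Gabra5, 0.09 to 0.21 for Gabrb1 and 0.06 to 0.16 for Gabrb2. With 1 library left out the log2 fold change was 0.11 to 0.21 for Gabra2, 0.04 to 0.13 for Gabra3, -0.12 to -0.05 for Gabra4, -0.15 to -0.10 for Gabra5, 0.07 to 0.23 for Gabra6, 0.08 to 0.20 for Gabrb1 and 0.09 to 0.18 for Gabrb2. A fit without control replicate 1 and deltamethrin replicate 14, added after seeing the data, gave 0 adjusted and 1304 unadjusted genes, -0.11 for Gabra5 (edgeR unadjusted p = 0.0290) and 0.13 for Gabra6. The 27 score correlations became 14 as partial correlations given the mitochondrial rRNA share, which takes no part in that count, and 23 to 27 with 1 library left out. The 11 subunit pairs became 7 with library totals without mitochondrial rRNA, also added after seeing the data, and 7 without deltamethrin replicate 1 (range 7 to 11). Without scaling factors the sign turned for Gabra3 with hippocampus (0.13), Gabra5 with thalamus (0.20), hypothalamus (0.18) and mitochondrial rRNA (-0.31), Gabrb2 with interneurons (0.28) and Gabra4 and Gabra5 with Gabrb2 (0.009 and 0.30), and Gabra4 with Gabrb2 also as a partial correlation (0.36). With 1 library left out the number of alpha shares that differed was 0 or 1 (1 without deltamethrin replicate 14), and the sign turned for the mitochondrial rRNA difference (-0.147 to 0.0397). No paired analysis was possible because replicates were numbered in accession order and those numbers pair nothing.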
